A study of Mus musculus with 2 samples.

Results

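The antioxidant programme of mouse liver controlled by NRF2, together with the glutathione and thioredoxin systems, was followed through 32 genes in livers of Gbp5 knockout (KO) mice and of wild-type (WT) mice. The members were chosen by symbol, as known components of these systems, and all 32 were found among 52489 annotated genes of the count tables (GRCm38, GENCODE M21). Gbp5 encodes an interferon-inducible GTPase. The KO mice carried the genotype GBP5-/-, the WT mice were wild type, and both were C57BL/6 and 9 weeks old. All mice of both genotypes had been given D-galactosamine (GalN) at 800 µg/g and lipopolysaccharide (LPS) at 100 ng/g body weight, with livers taken 6 h later. LPS is endotoxin of Gram-negative bacteria, and GalN makes hepatocytes sensitive to it by draining their uridine nucleotides. RNA of 4 livers was pooled per genotype and sequenced as 1 library. The libraries therefore hold no replicate, no p-value is given, and untreated liver was not analysed here. How the Gbp5 allele was made is not given in the sources used here.

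NRF2, encoded by Nfe2l2, is a transcription factor whose level is set mainly after translation. KEAP1 binds it and delivers it to a ubiquitin ligase, until oxidants or electrophiles modify cysteines of KEAP1 and NRF2 escapes to the nucleus. There it pairs with small MAF proteins on antioxidant response elements of genes for glutathione synthesis, thioredoxin reduction and quinone reduction. Glutathione peroxidases and peroxiredoxins then remove peroxides with electrons that come, through glutathione or thioredoxin, from NADPH. The liver is a main site of glutathione synthesis and of the making of selenoprotein P, which carries selenium in plasma.

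The KO library held 15750875 reads on genes and the WT library 19864848. Levels are CPM, reads scaled to a common total of reads on genes, or FPKM, which is CPM per 1 kb of exon. The length used is that of all annotated exons of a gene, which can exceed that of its transcripts. Comparisons of FPKM between genes are therefore approximate. Ratios are KO over WT on CPM with exact 95% counting intervals, which cover counting error only and compare these libraries, not the genotypes. Gbp5 itself had 55.4 CPM in KO against 162 CPM in WT, a ratio of 0.343 (interval 0.318 to 0.370), and which exons the allele lacks is not given in the sources used here. All 10 hepatocyte markers were present, from 461 to 69250 CPM in KO and from 423 to 38384 CPM in WT. The KO over WT ratio fell with the GC content of genes. When genes were split by GC content into 10 equal bins, the median log2 ratio was 0.29 in the bin poorest in GC and -0.87 in the richest. Each ratio is therefore given, where it matters, also after subtraction of the median of genes of like GC content and length, called the corrected value below.

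The sequence that NRF2 and small MAF proteins recognise has the core TGACNNNGC. This core was searched on both strands of RefSeq promoters (GRCm38.p6), each running from 250 bases before to 50 bases after the transcription start. Of the members, 29 were matched to such promoters, and Gclc, Prdx6 and Sod3 were not. The core was found for 7 of the 29, or 24.1%, against 14.0% of 27025 genes and 12.4% of all 32851 promoters of the same length. Sequence outside these promoters was not searched, so a member without the core here may hold it elsewhere. Those 7 sites are shown as matches to the core, which do not by themselves link a member to NRF2. They are read 5′ to 3′ on the strand of the gene, with the core in capitals. For Nfe2l2 it reads as TGACNNNGC, and for the others as its reverse complement.
Nfe2l2 (chr2:75704885-75704913, minus strand): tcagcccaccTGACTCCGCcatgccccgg
Gclm (chr3:122245407-122245447, plus strand): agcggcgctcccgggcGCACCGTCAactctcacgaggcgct
Mgst1 (chr6:138140461-138140489, plus strand): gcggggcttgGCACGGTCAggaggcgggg
Txnrd1 (chr10:82859098-82859138, plus strand): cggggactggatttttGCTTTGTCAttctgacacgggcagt
Srxn1 (chr2:152105542-152105570, plus strand): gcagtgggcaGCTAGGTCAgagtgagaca
Prdx1 (chr4:116685450-116685490, plus strand): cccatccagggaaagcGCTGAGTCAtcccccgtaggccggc
Sod1 (chr16:90220690-90220730, plus strand): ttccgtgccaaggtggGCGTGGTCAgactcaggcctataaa
The Txnrd1 site belongs to 1 of 3 promoters of that gene and lies inside it, outside exons. The Srxn1 site lies after the start, in an exon. The Mgst1 site lies before the RefSeq start but in an exon of the GENCODE gene, and the Nfe2l2 site in an exon of the neighbouring gene E030042O20Rik. The Prdx1 site alone overlaps the AP-1 motif TGAGTCA, whose reverse complement TGACTCA was searched as well. A match describes letters, not binding. None of these 7 genes differed by 1.5-fold between the libraries. Of all 13453 genes with a mean of 1 CPM or more, 10.9% were higher and 24.3% lower by that size, and 8717 were within it. The log2 ratios of the 7 ran from -0.11 for Nfe2l2 to 0.47 for Prdx1 with a median of 0.07. Those of the 22 matched members without the core ran from -0.94 to 0.66 with a median of 0.18. As corrected values, the 7 ran from -0.22 to 0.22 with a median of 0.02, and the 22 from -0.94 to 1.498 with a median of 0.32.

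The members ranged widely in level and kept nearly the same order in both libraries. Gpx1, the main cytosolic glutathione peroxidase, was the most abundant per length, with 2022 FPKM in KO and 1817 FPKM in WT. Selenop followed with 1723 FPKM in KO and 1089 FPKM in WT, then Mgst1 with 1164 FPKM in KO and 1057 FPKM in WT, and Cat with 787 FPKM in KO and 681 FPKM in WT. These were ranks 1 to 4 in each library, and Txn1 was the next in each. At the other end, Slc7a11 was lowest in both, with 0.456 FPKM in KO and 0.727 FPKM in WT. Nqo1, a quinone reductase and a classic NRF2 target, was also near the bottom, with 2.62 FPKM in KO and 1.69 FPKM in WT. Together the members took 1.79% of reads in KO and 1.502% in WT.

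**Figure D1:**
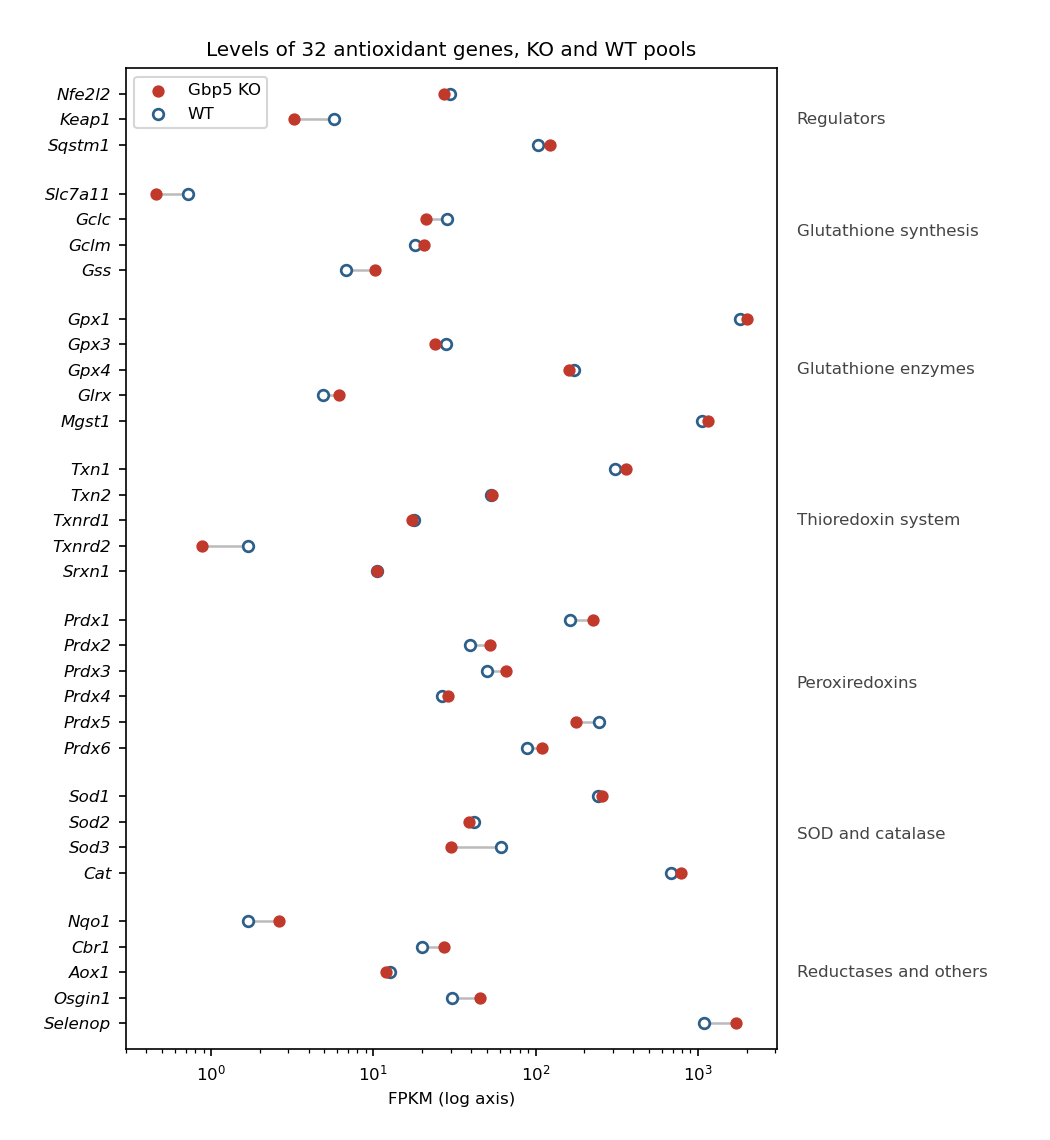
Level of each member in FPKM (log axis) in the KO library (filled) and the WT library (open), grouped by role, 1 value per library. Gpx1, Selenop, Mgst1 and Cat are the 4 most abundant members in both libraries, and Sod3 lies at 30.2 FPKM in KO and 61.6 FPKM in WT.

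Most members differed by less than 1.5-fold between these libraries. Of the 32 members, 3 were 1.5-fold or more higher in KO (Gss, Nqo1 and Selenop) and 4 were 1.5-fold or more lower (Keap1, Slc7a11, Txnrd2 and Sod3). These are 9.38% and 12.5% of members, against 10.9% of all 13453 genes with a mean of 1 CPM or more on the higher side and 24.3% on the lower side. The share of higher members thus lay near that of all genes. Only Sod3 passed 2-fold, in the lower direction, beside 11.8% of all genes lower and 3.28% higher at that size. The median log2 ratio was 0.12 for members and -0.07 for all these genes. After the correction, 2 members were 1.5-fold higher (Gss and Osgin1) and 2 lower (Slc7a11 and Sod3), or 6.25% each way, beside 11.6% and 16.1% of all genes. Osgin1 was then the only member past 2-fold, beside 3.86% of all genes higher and 5.96% lower. The interval included a ratio of 1 for 5 members, and the whole interval lay beyond 1.5-fold for 3, namely Keap1, Sod3 and Selenop.

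**Figure D2:**
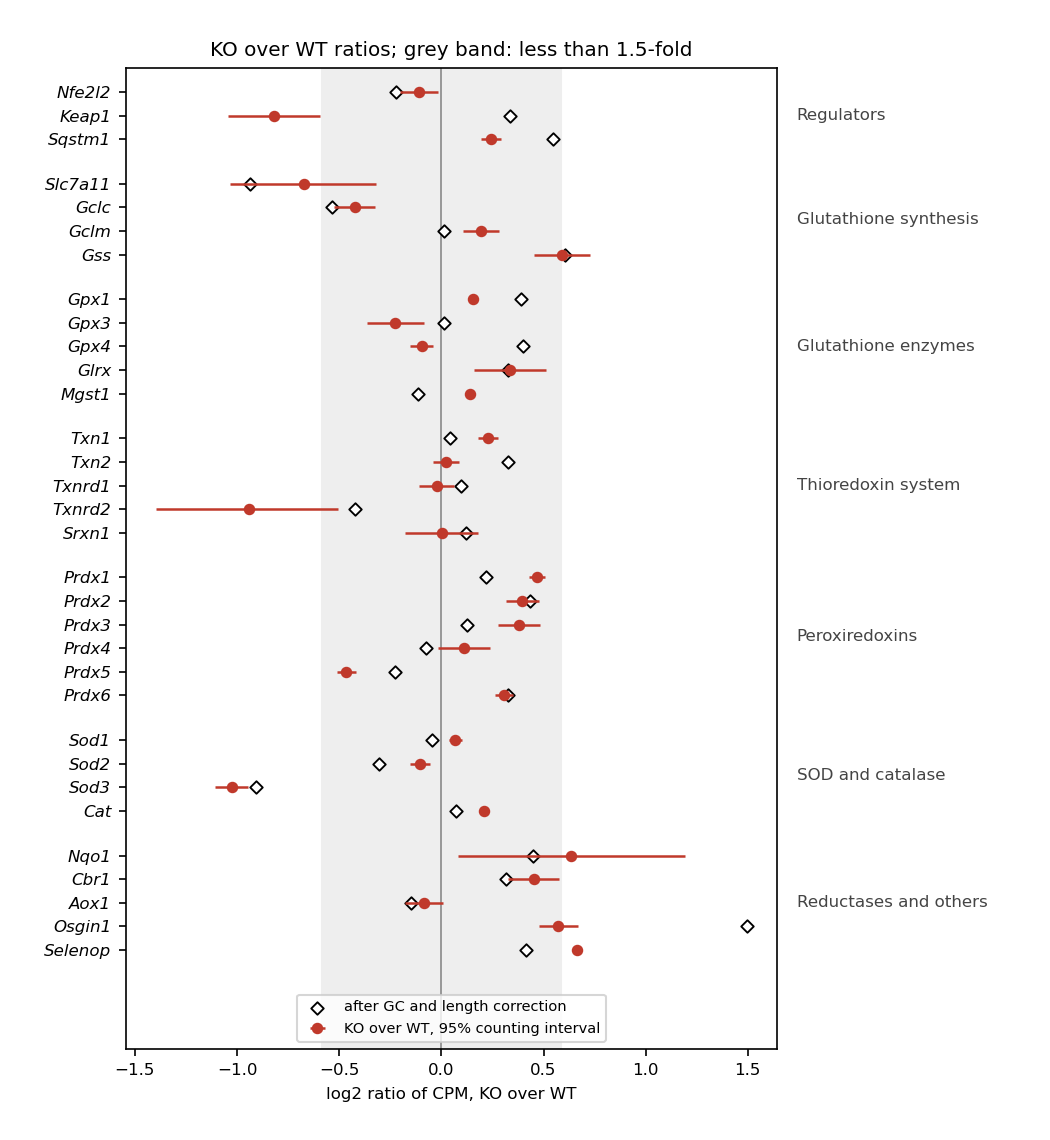
Log2 ratio of CPM, KO over WT, for each member, with 95% counting intervals as bars; diamonds give the ratio after correction for GC content and length, and the grey band marks less than 1.5-fold. Sod3 at -1.03, Txnrd2 at -0.94, Keap1 at -0.82 and Slc7a11 at -0.67 lie left of the band, and Osgin1 moves to 1.498 with the correction.

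Among the regulators, the gene for NRF2 was slightly lower in KO. The gene for its inhibitor was lower as measured but not after the correction. Nfe2l2 had 104 CPM in KO and 112 CPM in WT, a ratio of 0.927 (interval 0.870 to 0.989). Its corrected log2 value was -0.22, and with the 50 most abundant genes left out of the totals its log2 ratio was -0.005. Keap1 (ENSMUSG00000003308, chromosome 9, 21229730 to 21239361, minus strand) had 15.3 CPM in KO against 27.0 CPM in WT, on 241 and 536 reads. KO was thus the lower library, by 1.76-fold (interval 1.51 to 2.06). This direction did not hold under the correction: Keap1 has a GC content of 58.0%, genes of like GC content and length had a median of -1.15, and the corrected log2 value was 0.33, on the higher side. Sqstm1, which encodes the autophagy receptor p62 that competes for KEAP1 and is itself an NRF2 target, had 410 CPM in KO and 346 CPM in WT. Its ratio was 1.18 (interval 1.14 to 1.23), or 0.55 as a corrected log2 value.

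The 4 genes of glutathione synthesis went apart from each other. Slc7a11 (ENSMUSG00000027737, chromosome 3, 49892526 to 50443614, minus strand), the cystine importer, had 6.35 CPM in KO against 10.1 CPM in WT, on 100 and 201 reads. KO was 1.59-fold below WT (interval 1.25 to 2.05), and the corrected log2 value was -0.94, further from 0 than the -0.67 before correction, since this is the member poorest in GC at 40.7%. With the 50 most abundant genes left out of the totals its log2 ratio was -0.57, inside 1.5-fold. A stretch of 373 bases of its transcript is over 95% identical to alpha-tubulin genes, among them Tuba1b and Tuba1c, so part of this low count is uncertain. Gclc, the catalytic subunit of the rate-limiting ligase, had 80.1 CPM in KO against 107 CPM in WT, a ratio of 0.745 (interval 0.694 to 0.799). Gclm, the modifier subunit of the same enzyme, had 129 CPM in KO and 113 CPM in WT, a ratio of 1.14 (interval 1.08 to 1.22). Both were within 1.5-fold, and with the correction Gclm was at 0.02 and Gclc at -0.54 in log2. The FPKM of Gclc was 1.03 times that of Gclm in KO and 1.59 times in WT. Gss (ENSMUSG00000027610, chromosome 2, 155563181 to 155592810, minus strand), which completes glutathione, had 60.6 CPM in KO against 40.3 CPM in WT. Its ratio of 1.504 (interval 1.37 to 1.65) sat at the size limit and fell short of it with 1 CPM added (0.58 on the log2 scale), and the corrected log2 value was 0.61. Exons of Gss overlap Acss2 on the opposite strand by 395 bases, and Acss2 held 2016 reads in KO and 2978 in WT. The strand setting of the counting is not given in the sources used here.

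All 5 genes of glutathione use stayed within 1.5-fold, as did 8717 of all 13453 genes with a mean of 1 CPM or more. Gpx1 had 2913 CPM in KO and 2618 CPM in WT, a ratio of 1.11 (interval 1.10 to 1.13). Gpx3, the plasma glutathione peroxidase, had 43.8 CPM in KO and 51.2 CPM in WT, a ratio of 0.856 (interval 0.776 to 0.943). Gpx4, which reduces lipid peroxides in membranes and restrains ferroptosis, had 279 CPM in KO and 298 CPM in WT, a ratio of 0.936 (interval 0.8999 to 0.973). KO was thus the higher library for Gpx1 and the lower for Gpx3 and Gpx4, by small amounts. Gpx4 has a processed pseudogene, Gpx4-ps2, of 99.7% identity over 733 bases that held 1088 reads in KO and 1633 in WT, and the sum of both gave a ratio of 0.915 (interval 0.884 to 0.948). With the correction Gpx1 and Gpx4, both rich in GC, lay at 0.39 and 0.40 and Gpx3 at 0.01. Mgst1, a membrane glutathione transferase, had 2342 CPM in KO and 2128 CPM in WT, a ratio of 1.10 (interval 1.09 to 1.12), but its corrected log2 value was -0.12, on the lower side. Glrx, the glutaredoxin that removes glutathione from proteins, had 34.0 CPM in KO and 26.9 CPM in WT, a ratio of 1.26 (interval 1.12 to 1.43).

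In the thioredoxin system the cytosolic and the mitochondrial reductase differed in ratio. Txnrd1, the cytosolic enzyme, had 123 CPM in KO and 125 CPM in WT, a ratio of 0.984 (interval 0.927 to 1.04), or 0.10 as a corrected log2 value. Txnrd2 (ENSMUSG00000075704, chromosome 16, 18426384 to 18479073, plus strand), the mitochondrial one, had 3.87 CPM in KO against 7.45 CPM in WT, on 61 and 148 reads. KO was 1.92-fold below WT, with a wide interval of 1.42 to 2.64 that reflects these low counts. Its corrected log2 value was -0.42, inside 1.5-fold. Thioredoxins themselves were level or slightly higher, and which of them was the higher changed with the correction. Txn1 had 381 CPM in KO and 325 CPM in WT, a ratio of 1.17 (interval 1.13 to 1.21). Mitochondrial Txn2 had 226 CPM in KO and 223 CPM in WT, a ratio of 1.02 (interval 0.972 to 1.06). Their corrected log2 values were 0.04 for Txn1 and 0.33 for Txn2. Srxn1, the sulfiredoxin that repairs overoxidised peroxiredoxins, had 29.6 CPM in both libraries, with a ratio of 1.002 (interval 0.885 to 1.13).

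Of the 6 peroxiredoxin genes, 5 had ratios above 1 and none reached 1.5-fold. Of all 13453 genes with a mean of 1 CPM or more, 6120 had ratios above 1 and 8717 were within 1.5-fold. Prdx1, the abundant cytosolic form, had 684 CPM in KO and 495 CPM in WT, a ratio of 1.38 (interval 1.35 to 1.42). Prdx2, also cytosolic and abundant in red cells, had 159 CPM in KO and 121 CPM in WT, a ratio of 1.32 (interval 1.24 to 1.39). Mitochondrial Prdx3 had 97.2 CPM in KO and 74.7 CPM in WT, a ratio of 1.302 (interval 1.21 to 1.399). For all 3 KO was the higher library, and their corrected log2 values were 0.22, 0.43 and 0.13. Prdx6, which also has phospholipase activity, had 524 CPM in KO and 423 CPM in WT, a ratio of 1.24 (interval 1.2005 to 1.28). Prdx4, the form of the endoplasmic reticulum, had 60.5 CPM in KO and 56.0 CPM in WT, a ratio of 1.08 (interval 0.989 to 1.18) that included 1, and its corrected log2 value was -0.08. After the correction 4 of the 6 were thus above 0 and 2 below. Prdx5 went the other way, with 382 CPM in KO against 528 CPM in WT, a ratio of 0.725 (interval 0.702 to 0.748) and a corrected log2 value of -0.23. By FPKM, Prdx1 made up 34.1% of the family in KO and 26.5% in WT, and Prdx5 27.1% in KO and 40.2% in WT. Prdx1 has a GC content of 42.3% and Prdx5 of 56.4%, and these shares are not corrected for it. Erythroid markers moved with Prdx2: 5 of 6 measured were above 0 in log2 ratio, their summed level was 5330 CPM in KO and 3733 CPM in WT, none was at 0, and their part in the result was not tested. Prdx2 also overlaps Junb on the opposite strand by 173 bases, and Junb held 7582 reads in KO and 22035 in WT.

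Among the superoxide dismutases, the extracellular enzyme stood out from the intracellular forms. Sod3 (ENSMUSG00000072941, chromosome 5, 52363791 to 52371418, plus strand), which is secreted and bound to matrix, had 113 CPM in KO against 230 CPM in WT, on 1780 and 4574 reads. KO was 2.04-fold below WT (interval 1.93 to 2.15), the lowest ratio of any member, and its corrected log2 value was -0.91. Sod1, the cytosolic enzyme, had 1013 CPM in KO and 966 CPM in WT, a ratio of 1.05 (interval 1.03 to 1.07), or -0.04 as a corrected log2 value. Sod2, the mitochondrial enzyme and a known NF-kB target, had 391 CPM in KO and 420 CPM in WT, a ratio of 0.930 (interval 0.899 to 0.961). Sod3 thus supplied 9.32% of the FPKM of the family in KO and 17.75% in WT. Cat, the peroxisomal catalase, had 2056 CPM in KO and 1779 CPM in WT, a ratio of 1.16 (interval 1.14 to 1.17).

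Macrophage markers and T and NK cell markers were lower in KO beside Sod3 and Slc7a11, and markers of other non-parenchymal cells were mixed. All 11 Kupffer cell and macrophage markers had ratios below 1, of which 9 were 1.5-fold or more lower, with a summed level of 642 CPM in KO and 1546 CPM in WT and no marker at 0. All 11 were also 1.5-fold lower after the correction. Of T and NK cell markers, 6 of 6 measured were 1.5-fold or more lower, before and after the correction. Of all genes, 24.3% were lower by that size as measured and 16.1% after the correction. Neutrophil markers were below 1 for 5 of 8 measured, and 7 of these 8 were below 0 in log2 after the correction. Of 8 sinusoidal endothelial markers 7 were below 1, with a summed level of 672 CPM in KO and 987 CPM in WT, but after the correction 5 were below 0 and 3 above, with a median of -0.05. Of 8 stellate cell and fibroblast markers 5 were below 1, with 794 CPM in KO and 842 CPM in WT, and the correction turned the list, with 5 above 0 and a median of 0.11 against -0.25 before it. None of either list was at 0. Cholangiocyte markers went the other way: 5 of 6 measured were above 0, 3 were 2-fold or more higher, and the summed level was 262 CPM in KO and 157 CPM in WT, with none at 0. Exocrine pancreas markers summed to 40.3 CPM in KO and 26.6 CPM in WT, with 6 at 0 in KO and 5 in WT. Only 2 of these were measured, and they went opposite ways. Ctrb1 had 297 reads in KO and 0 in WT, and Cela1 had 328 in KO and 521 in WT. The part of these cells in the values of Sod3 and Slc7a11 was not tested. In whole liver, fewer cells of a type and less RNA per cell cannot be told apart.

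The remaining 5 members, reductases, a growth inhibitor and a selenium carrier, leaned to the higher side. Selenop (ENSMUSG00000064373, chromosome 15, 3268547 to 3280508, plus strand), selenoprotein P, had 4897 CPM in KO against 3094 CPM in WT, a ratio of 1.58 (interval 1.57 to 1.599) resting on 77129 and 61468 reads. Its corrected log2 value was 0.42, short of 1.5-fold. Hepatocyte markers moved with Selenop and the other higher members: 9 of 10 were above 0 in log2 ratio, with a summed level of 108945 CPM in KO and 71178 CPM in WT, a ratio of 1.53, and none at 0. Alb alone supplied 69250 CPM of that sum in KO and 38384 CPM in WT. The median log2 ratio of the 10 was 0.34, and 2 were 1.5-fold or more higher, or 20%, beside 10.9% of all genes. The part of hepatocytes in these results was not tested. Osgin1 (ENSMUSG00000074063, chromosome 8, 119434124 to 119446256, plus strand), an oxidative-stress-induced growth inhibitor and NRF2 target, had 122 CPM in KO and 82.2 CPM in WT. Its ratio of 1.49 (interval 1.39 to 1.59) lay just inside the size limit, and it passed that limit under 4 of 10 alternative settings. Osgin1 has a GC content of 59.3%, genes like it in GC content and length had a median of -0.92, and its corrected log2 value of 1.498 was the highest among the members. Nqo1 (ENSMUSG00000003849, chromosome 8, 107388225 to 107403206, minus strand) had 4.06 CPM in KO against 2.62 CPM in WT, but on 64 and 52 reads, so its ratio of 1.55 had an interval of 1.06 to 2.28. It fell inside 1.5-fold with a pseudocount (0.485 on the log2 scale with 1 CPM added) and with the correction (0.45). Cbr1, a carbonyl reductase, had 69.6 CPM in KO and 50.9 CPM in WT, a ratio of 1.37 (interval 1.26 to 1.49). Aox1, an aldehyde oxidase that itself yields superoxide, had 104 CPM in KO and 110 CPM in WT, a ratio of 0.942 (interval 0.883 to 1.005).

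Groups that cut across these roles showed no common direction. The 6 selenoprotein genes among the members (Gpx1, Gpx3, Gpx4, Txnrd1, Txnrd2 and Selenop) ran from -0.94 to 0.66 in log2 ratio with a median of -0.06, and 5 of 6 lay above 0 after the correction. The 4 members whose proteins act chiefly in mitochondria (Txn2, Txnrd2, Prdx3 and Sod2) ran from -0.94 to 0.38. The GC trend of the libraries was visible among the members too. None of the 12 members with a GC content above 50% was 1.5-fold higher and 3 were lower, while of the 20 others 3 were higher and 1 was lower. These are 0% and 25% of the 12, and 15% and 5% of the 20. Of all genes, whatever their GC content, 10.9% were higher and 24.3% lower, so the 25% lay near that share. The shares of all genes on each side of 50% GC were not computed. The median log2 ratio was -0.05 for the 12 and 0.20 for the 20. Spearman's rho between GC content and log2 ratio was -0.25 over the 32 members and -0.47 over 13446 genes, as a description, since all points come from the same pair of libraries. After the correction it was -0.01 over all genes but 0.31 over the members, so among the members the correction turned the trend rather than removing it. Corrected values of members rich in GC, such as Keap1, Osgin1 and Gpx4, carry this limit.

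**Figure D3:**
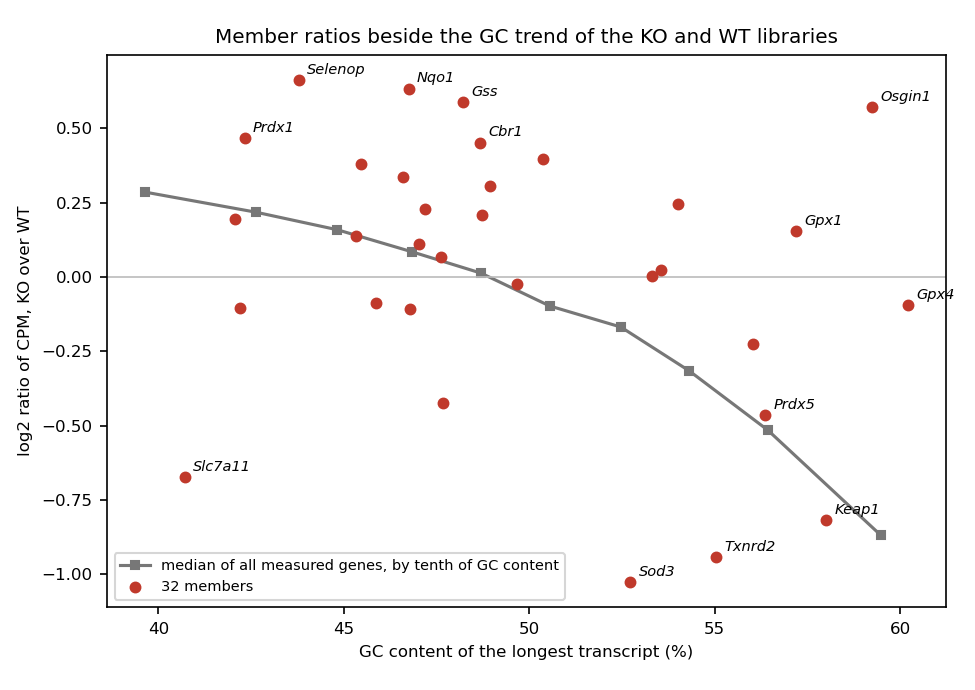
Log2 ratio of CPM, KO over WT, against GC content of the longest transcript (%) for the 32 members (points), with the median of all measured genes in 10 equal bins of GC content (squares and line). Keap1 lies close to the line, Osgin1 and Gpx4 lie above it, and Sod3 and Slc7a11 lie below it.

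Genes for NRF2 partners, competitors and degradation factors were mixed. Of 11, 5 were 1.5-fold or more lower and 1 higher, with a median log2 ratio of -0.12, and 3 were lower and 1 higher after the correction. These are 45.5% lower and 9.09% higher, beside 24.3% and 10.9% of all genes, and after the correction 27.3% and 9.09%, beside 16.1% and 11.6%. The lowest were small MAF genes. Mafg had 43.5 CPM in KO against 133 CPM in WT, a ratio of 0.327 (interval 0.301 to 0.356), and Mafk had 31.7 CPM in KO against 82.2 CPM in WT, a ratio of 0.385 (interval 0.348 to 0.426). Both stayed beyond 1.5-fold after the correction, at -1.09 and -0.88. Btrc, a ubiquitin ligase subunit that degrades NRF2 independently of KEAP1, was highest with 12.4 CPM in KO and 6.90 CPM in WT, a ratio of 1.80 (interval 1.44 to 2.26), followed by the ligase subunit gene Rbx1 with 54.0 CPM in KO and 38.1 CPM in WT.

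Other NRF2 target genes held no gene lower by that size. Of 28, none was 1.5-fold lower and 5 were higher, with a median of 0.13. After the correction the counts were again 0 and 5, but the higher genes were not all the same. Gsta4 dropped from 0.61 to 0.47 in log2 ratio, and Gstp1 rose from 0.48 to 0.72. The higher genes are 17.9% of the list, beside 10.9% of all genes as measured and 11.6% after the correction. On the lower side the share of all genes was 24.3% as measured and 16.1% after the correction. Ptgr1, a prostaglandin and alkenal reductase, had 6.98 CPM in KO against 2.97 CPM in WT, a ratio of 2.35 (interval 1.70 to 3.28). Me1, a source of NADPH that also serves fat synthesis, had 207 CPM in KO against 96.8 CPM in WT, a ratio of 2.14 (interval 2.02 to 2.27). Lowest were Hmox1, heme oxygenase, with 218 CPM in KO against 312 CPM in WT and a ratio of 0.698 (interval 0.669 to 0.727), and the exporter gene Abcc2 with 277 CPM in KO and 346 CPM in WT.

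In glutathione recycling and turnover, 2 of 20 genes were 1.5-fold higher and 3 lower, or 10% and 15%, beside 10.9% and 24.3% of all genes. After the correction 3 were higher and 1 lower. Oplah, which returns oxoproline to glutamate, had 105 CPM in KO against 207 CPM in WT, a log2 ratio of -0.97 that became 0.18 with the correction. Slc3a2, the heavy chain that partners the Slc7a11 product, was the next lowest, with 84.5 CPM in KO against 161 CPM in WT, a ratio of 0.524 (interval 0.492 to 0.559) and a corrected log2 value of -0.81. Both chains of the cystine importer were thus lower in KO with and without the correction. Highest were Gpx7, with 2.29 CPM in KO and 1.41 CPM in WT on 36 and 28 reads, and the transferase gene Gsto1, with 155 CPM in KO and 99.2 CPM in WT. The reductase gene Gsr had 91.6 CPM in KO and 107 CPM in WT.

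The selenoprotein lists outside the members were mixed. Of 14 measured other selenoprotein genes none was higher and 3 were lower by 1.5-fold, with Selenoo and Selenon lowest at -0.94 and -0.77, and the deiodinase gene Dio1 and the synthetase gene Sephs2 highest at 0.56 and 0.39. The lower genes are 21.4% of the list, beside 24.3% of all genes. After the correction 1 was still lower by that size, and Selenon lay at -0.27. Of 7 measured genes of the selenocysteine machinery 1 was higher, the kinase gene Pstk at 0.77. Sepsecs followed at 0.28, and Secisbp2 and Scly were lowest at -0.44 and -0.16. Of 18 genes for thioredoxin-related proteins and methionine sulfoxide repair, 2 were higher and 2 lower, or 11.1% each way, and after the correction 1 was higher and 1 lower. Txnip, an inhibitor of thioredoxin, had 131 CPM in KO against 64.2 CPM in WT, a ratio of 2.05 (interval 1.91 to 2.20), and Txndc9 followed at 0.59 in log2 ratio. Nxn, nucleoredoxin, was lowest with 3.68 CPM in KO against 8.10 CPM in WT, and Sesn2 had 5.52 CPM in KO against 10.97 CPM in WT, a log2 ratio of -0.99 that became -0.07 with the correction.

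Genes for sources of reactive oxygen included many of the phagocyte oxidase. Of 13 measured, 5 were 1.5-fold lower, all of them subunits or activators of the phagocyte NADPH oxidase. These are 38.5% of the list, beside 24.3% of all genes, and after the correction again 5 were lower, beside 16.1%. They were not the same 5: with the correction Cyba moved from -0.94 to -0.44 in log2, inside 1.5-fold, and Cybb from -0.55 to -0.72, beyond it. Lowest were Ncf1, with 18.4 CPM in KO against 42.3 CPM in WT and a ratio of 0.435 (interval 0.379 to 0.498), and Ncf4, with 17.2 CPM in KO against 34.1 CPM in WT. The catalytic subunit gene Cybb had 110 CPM in KO against 160 CPM in WT, a ratio of 0.685 (interval 0.646 to 0.727). These moved with the macrophage markers given above, and with T and NK cell markers, of which 6 of 6 measured were 1.5-fold lower, with a summed level of 31.2 CPM in KO and 70.2 CPM in WT and none at 0. Their part in these values was not tested. Neutrophil markers, another source of this oxidase, were below 1 for 5 of 8, with a summed level of 603 CPM in KO and 648 CPM in WT and none at 0. Lcn2 held 275 CPM of that sum in KO and 227 CPM in WT. After the correction 7 of the 8 were below 0 in log2, with a median of -0.32 against -0.30 before it. Maoa, the outer-membrane amine oxidase, was second highest at 0.52. Highest was Duox2, a dual oxidase of epithelia, with 126 reads in KO and 3 in WT, or 7.9996 CPM in KO against 0.151 CPM in WT. Markers of gut and gallbladder epithelium moved with Duox2, with 7 of 7 measured at least 1.5-fold higher in KO and a summed level of 341 CPM in KO and 15.2 CPM in WT. Cdh17 of that list was at 0 in KO and Muc3 at 0 in WT, and the part of such tissue in the value of Duox2 was not tested.

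**Figure D4:**
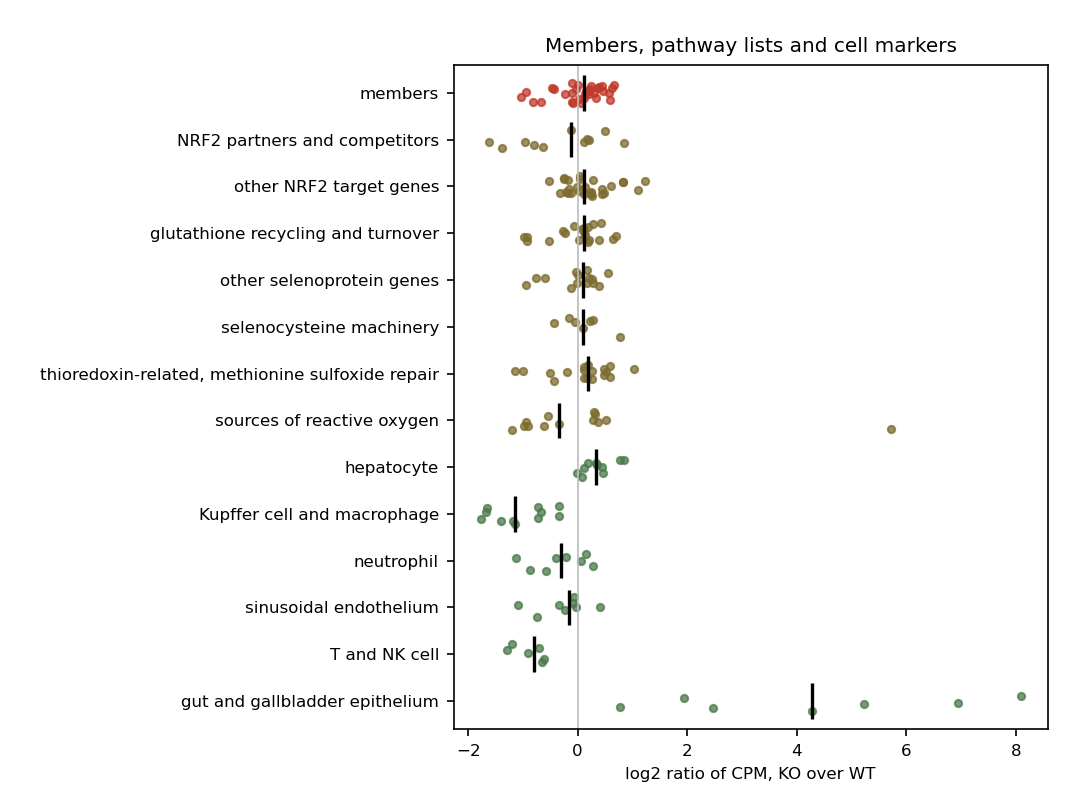
Log2 ratios of CPM, KO over WT, of the members (red), of pathway lists (brown) and of cell type markers (green), for genes with a mean of 1 CPM or more; black bars are medians, and Muc3, with 0 reads in WT, is drawn at a bound of 3 reads. The members centre at 0.12, Kupffer cell and macrophage markers at -1.15, and Duox2 lies at 5.73 among the sources of reactive oxygen.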

How the data were processed

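Liver RNA of 1 KO and 1 WT library, each a pool of 4 livers, was analysed. The submitters' processing notes name TopHat2, the counter HTSeq 0.6.1 and the build GRCm38. Which annotation, strand mode and read filters were applied is unstated. The deposited tables are named for FPKM but hold whole-number read counts, with 2982 genes at exactly 1 read in KO and 2707 in WT. CPM used reads on all Ensembl genes; 209 entries without an annotated gene, 0.496% of counts in KO and 0.652% in WT, were left out, and 147 Ensembl genes had no annotation. FPKM was computed from these counts with the union of exons in GENCODE M21 as length. The authors' annotation may differ, which would change FPKM but not CPM ratios.

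With 1 library per genotype no test across replicates exists. Ratios had 95% Clopper-Pearson intervals given the summed reads, and calls were by size (1.5-fold and 2-fold) among genes with a mean of 1 CPM or more. The correction subtracted the median log2 ratio in 10 GC by 4 length bins, taken over genes having at least 100 reads. It also removes real differences that go with these features. Its steps were tested on simulated data. Near-identical transcripts (95% over 150 bases) were found with blastn 2.17.0. The members, lists and alternatives were chosen with earlier results of these data known. Named genes were all members, and of each pathway list the 2 highest and 2 lowest genes. Cyba, Cybb, Gsr, Gsta4, Gstp1, Gpx2 and Selenov were added after their values were seen. Ahsp among the markers was not found. Python 3.11.15, numpy 2.4.6, pandas 2.3.3, scipy 1.17.1, edgeR 4.0.16 (TMM factors) and DESeq2 1.42.0 (size factors) were used.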

Additional observations from a re-analysis of the deposited data

How the results depend on the processing

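No paired analysis was possible because each genotype is 1 library. The alternatives were TMM and median ratio scaling, totals without mitochondrial genes or without the 50 most abundant genes, added pseudocounts, other filters, protein-coding genes only, and the GC and length correction. Of 319 member values under 10 alternatives, 268 stayed inside their counting interval and 50 moved outside it. Keap1 alone changed sign while called, at 0.33 with the correction. Members lower by 1.5-fold were then 2, members higher by 2-fold 1 (Osgin1) and members lower by 2-fold 0. All genes lower by 1.5-fold were then 2163, and by 2-fold 801. Without the 50 most abundant genes in the totals, the members' median was 0.23 and Sod3 fell short of 2-fold (0 members lower), as the whole scale shifted by 0.10. With 0.5 or 1 CPM added, 1 member (Selenop) was 1.5-fold higher, since Gss and Nqo1 fell below the limit, and with 1 CPM added 241 genes were 2-fold higher. With a mean of 5 CPM required, which leaves out Nqo1, 749 genes were 1.5-fold and 131 genes 2-fold higher. With no filter beyond 1 read, genes higher and lower were 4194 and 5336 at 1.5-fold and 2360 and 2779 at 2-fold. Lower calls were 69.1% of all 1.5-fold calls, but 57.9% without the 50 most abundant genes, 56.0% without the filter and 58.2% with the correction. Depth limits Txnrd2, Nqo1 and Slc7a11, each on 201 reads or fewer per library.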

Other observations

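Gpx2, the glutathione peroxidase of gut epithelium, belonged to no comparison above because its mean level was under 1 CPM. It had 22 reads in KO and 0 in WT and was 9.25-fold higher in KO against a floor of 3 reads in the WT library. The lower limit of its counting interval was 6.91-fold. Gpx2 therefore went in the same direction as Duox2 and the gut and gallbladder epithelium markers, and their part in its value was not tested. Selenov, another selenoprotein gene, had 0 reads in both libraries.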
